A study of Mus musculus with 6 samples.

Results

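The genes described here encode the contractile apparatus of smooth muscle: the actins Acta2 and Actg2, the myosin chains Myh11 and Myl9, the actin-binding proteins Tagln, Cnn1, Cald1, Tpm1 and Tpm2, and the intermediate filament protein Des. They were chosen by name as a known functional group, with earlier results of these data known. All 10 were found once each among the 23358 entries of the count table. In smooth muscle, myosin filaments built from heavy chains pull on actin filaments when the regulatory light chain is phosphorylated, while tropomyosin, caldesmon and calponin sit along the actin filament and tune the pull. Many of these genes are driven by serum response factor (SRF) and its partners of the myocardin family through a DNA element called the CArG box. Several are also switched on in spread or tensed connective tissue cells, including cultured chondrocytes, without the cell being smooth muscle.

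RNA of immature mouse chondrocytes was sequenced. The cells were taken from both sides of the knee joint and from the femoral head of mice at post-natal day 5, of a C57BL/6 - mix strain, and grew as micromasses, dense drops in which chondrocytes lay down cartilage. The medium held insulin, transferrin and selenium, 0.05 mg/mL ascorbic acid and 10 mM β-glycerol phosphate. Wildtype and Ezh2-deficient cells each gave 1 library at days 3, 7 and 14, 6 libraries in all, and every library shares the strain label, age and medium. Ezh2 encodes a histone methyltransferase, the catalytic part of a Polycomb complex that marks silenced genes. The titles mark the deficient cells as Ezh2_cKO, a conditional knockout; the Cre driver and the number of animals per culture are not given in the sources used here. The libraries held 51985214 to 79323302 counts. Ezh2 itself ran from 24.7 to 40.2 CPM (counts scaled to a common library size) in wildtype libraries and from 14.7 to 23.0 CPM in Ezh2-deficient libraries, lower in the deficient library of each day. The deleted part of the gene is not given, so its reads are no full check of the labels. Xist was 1065, 1130 and 1223 CPM in wildtype and 842, 677 and 513 CPM in Ezh2-deficient libraries at days 3, 7 and 14. The sum of 4 Y-linked genes was 60.6 to 90.8 CPM in wildtype and 122 to 171 CPM in Ezh2-deficient libraries. These sex-linked levels moved with genotype, and their part in the results that follow cannot be told apart from it. In bulk RNA, fewer cells of a type and less RNA per cell cannot be told apart.

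CArG boxes stood near the start of some of these genes. A CArG box is a run of 10 letters, with a pair of C, then 6 letters that are each A or T, then a pair of G, and it reads the same on both strands. RefSeq promoter windows of the GRCm38.p6 build (250 bases before to 50 bases after the transcript start) were matched for 7 members, in 8 windows; Tagln, Myh11 and Actg2 had no entry. An exact box was found in 1 of the 8 windows (12.5%), that of Myl9, whereas 1.63% of all 32851 windows held one. Like shares of exact boxes were seen in other lists. They were 14.3% for non-muscle cytoskeletal genes, 12.5% for regulators of contractile genes, 11.4% for other contractile genes and 10.7% for striated muscle genes. Pericyte, endothelial, myofibroblast and cartilage genes had 0. With 1 letter off the motif allowed, 4 of the 8 member windows held a box, against 21.1% of all windows. Other lists ranged widely. The share was 50% of the windows of endothelial genes and 42.9% each of those of striated muscle and of non-muscle cytoskeletal genes. It was 37.1% for other contractile genes, 33.3% for pericyte genes and 25% for regulators of contractile genes. Myofibroblast genes had 13.3% and cartilage genes 9.09%. The sites of the smooth muscle actin gene Acta2, of Myl9 and of Tpm1 are shown, as the windows of these genes held 2 sites each. Each line is 30 bases, 5′ to 3′ on the gene's strand, with the box in capitals.

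Acta2, 84 bases before the start (chr19:34255438-34255467, minus strand): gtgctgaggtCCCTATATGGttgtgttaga
Acta2, 34 bases before the start (chr19:34255388-34255417, minus strand): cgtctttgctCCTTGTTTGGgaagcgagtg
Myl9, 161 bases before the start (chr2:156775293-156775322, plus strand): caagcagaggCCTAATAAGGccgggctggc
Myl9, 99 bases before the start (chr2:156775355-156775384, plus strand): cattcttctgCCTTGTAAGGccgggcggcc
Tpm1, 221 bases before the start (chr9:67049415-67049444, minus strand): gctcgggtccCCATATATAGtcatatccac
Tpm1, 80 bases before the start (chr9:67049274-67049303, minus strand): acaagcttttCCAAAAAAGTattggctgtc

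The box of Myl9 at 161 bases is exact and the other 5 printed sites are each 1 letter off. The window of Cald1's upstream start held 1 further such site, and the windows of Cnn1, Tpm2, Des and the downstream start of Cald1 held none. GENCODE places alternative exons over 217 of the 250 upstream bases of Acta2 and over 193 of those of Tpm1.

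Per length of transcript, the members spanned more than 3 orders of magnitude, with the broadly expressed tropomyosin at the top and smooth muscle myosin at the bottom. On the deposited RPKM scale, Tpm1, a tropomyosin that lies along the actin filament, ran from 59.4 to 167 over the 6 libraries. Cald1 (31.1 to 95.2), Acta2 (18.3 to 139), Tagln (8.32 to 69.4), Myl9 (7.46 to 72.9) and Tpm2 (10.7 to 41.3) overlapped one another in their ranges. Actg2 (1.38 to 7.82), Des (0.175 to 2.38) and Cnn1 (0.225 to 1.57) were lower, and the highest Actg2 value passed the lowest Myl9 value only narrowly. Myh11, the heavy chain that defines smooth muscle myosin, ran from 0.0187 to 0.0648 RPKM, with 8 to 42 counts per library. The order of medians was Tpm1, Cald1, Acta2, Tagln, Myl9, Tpm2, Actg2, Des, Cnn1 and Myh11, and among the first 6 no neighbours were apart beyond their spread over libraries. Tpm2 and Actg2 did not overlap, nor did Cnn1 and Myh11, while Actg2 overlapped Des and Des overlapped Cnn1.

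**Figure D1:**
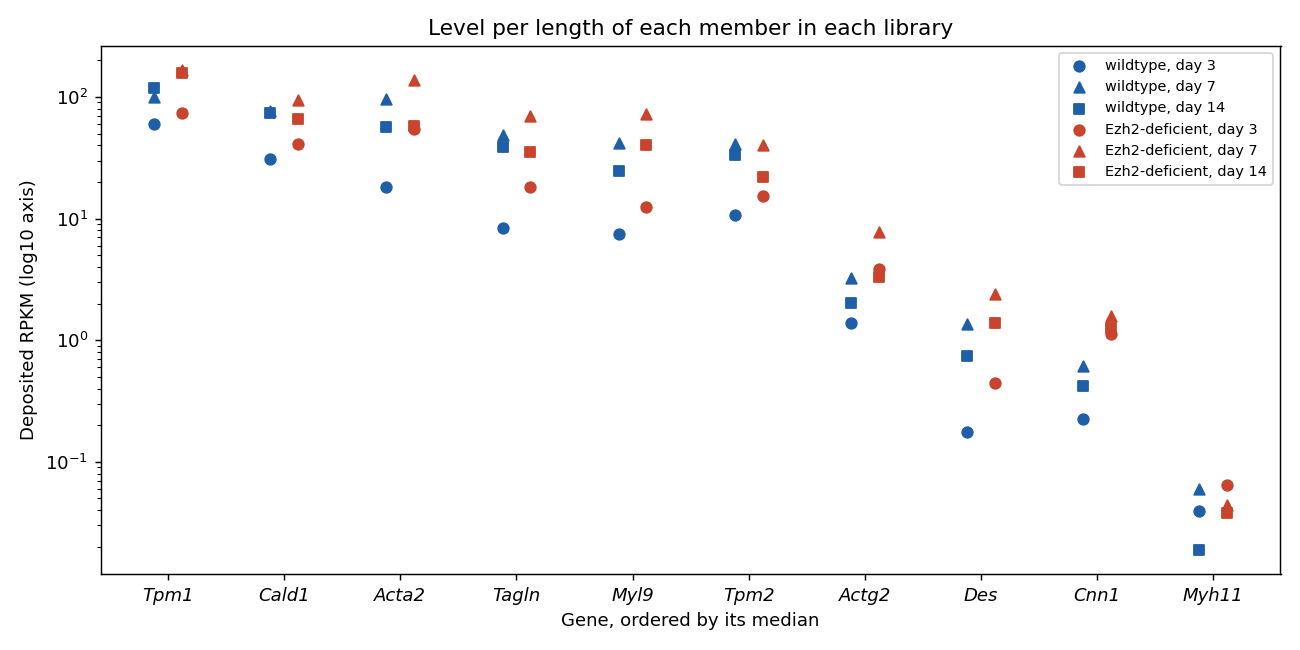
Deposited RPKM (log10 axis) of the 10 genes in each of the 6 libraries, ordered by median; colour is genotype and marker shape is day. Tpm1 is highest (59.4 to 167), Cnn1 stays under 1.58 and Myh11 under 0.065.

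The smooth muscle actins were higher in the Ezh2-deficient library of every day. Acta2 (chromosome 19, 34241091 to 34255336, mm10), the α-actin of vascular smooth muscle and of myofibroblasts, was 42.0 CPM in wildtype and 127 CPM in Ezh2-deficient cells at day 3. The wildtype and Ezh2-deficient values were 196 and 281 CPM at day 7, then 123 and 133 CPM at day 14. The wildtype day 3 library was the lowest of the 6, and the genotypes overlapped once days were mixed. The ratio of Ezh2-deficient to wildtype went from 3.03 (95% interval 2.85 to 3.22) at day 3 to 1.43 (1.39 to 1.47) at day 7 and 1.09 (1.03 to 1.14) at day 14; these intervals cover counting error only. Actg2 (chromosome 6, 83512909 to 83536251), the γ-actin of gut and other visceral smooth muscle, was 2.34 CPM in wildtype and 6.67 CPM in Ezh2-deficient cells at day 3. The same pair of values was 4.91 and 11.7 CPM at day 7, then 3.27 and 5.66 CPM at day 14. All 3 Ezh2-deficient libraries were above all 3 wildtype libraries for Actg2, a pattern that 2.16% of the 16280 genes tested shared, and its ratio was 2.86, 2.38 and 1.73 on the 3 days. The actins are close relatives, and the counting could have split reads between them. Acta2 was a small part of all actin RNA: of the summed RPKM of Acta2, Actg2, Acta1, Actc1, Actb and Actg1, it took 2.02%, 6.68% and 4.75% in wildtype and 5.26%, 9.28% and 5.92% in Ezh2-deficient libraries at days 3, 7 and 14. The non-muscle Actb and Actg1 together made up the bulk, with Actg1 alone at 54.1% to 66.4%.

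Among the proteins that bind the actin filament, Cnn1 was 2.56-fold to 5.13-fold higher in the Ezh2-deficient library of the same day. Cnn1 (chromosome 9, 22099253 to 22109221), calponin 1, a thin filament protein of differentiated smooth muscle, was 0.576, 1.39 and 1.03 CPM in wildtype and 2.96, 3.56 and 3.25 CPM in Ezh2-deficient cells at days 3, 7 and 14. As for Actg2, the lowest Ezh2-deficient library was above the highest wildtype library. These levels rest on 38 to 280 counts, and the ratios were 5.13 (95% interval 3.14 to 8.85), 2.56 (1.84 to 3.62) and 3.17 (2.04 to 5.07). Its relatives are the abundant calponins here: of the summed RPKM of Cnn1, Cnn2 and Cnn3, Cnn1 took 0.151% to 0.317% in wildtype and 0.704% to 0.720% in Ezh2-deficient libraries.

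Tagln (chromosome 9, 45929628 to 45936058), transgelin or SM22α, an early marker of the smooth muscle lineage that cross-links actin, was 17.0, 88.2 and 75.9 CPM in wildtype and 38.0, 125 and 73.2 CPM in Ezh2-deficient cells at days 3, 7 and 14. The day 3 libraries were the lowest of each genotype. The genotype ratio was 2.23 (2.02 to 2.46), 1.42 (1.36 to 1.49) and 0.964 (0.906 to 1.03), with day 14 within counting error of no difference. The last bases of Tagln overlap the entry of Pcsk7, which ran from 26.3 to 38.5 CPM, and without a stated strand setting shared reads cannot be told apart. Cald1 (chromosome 6, 34709444 to 34775469), caldesmon, which holds back myosin on actin, was 162, 357 and 362 CPM in wildtype and 218, 437 and 348 CPM in Ezh2-deficient cells on the same days, with ratios of 1.34, 1.22 and 0.961. The genotypes overlapped and both day 3 libraries were low. Its entry begins at the downstream of the starts that RefSeq lists. The exons counted are not given, and a single entry cannot tell the smooth muscle and non-muscle splice forms apart.

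The tropomyosin genes differed in their genotype ratios. Tpm1 (chromosome 9, 67022593 to 67049213) was 251, 373 and 479 CPM in wildtype and 318, 622 and 667 CPM in Ezh2-deficient cells at days 3, 7 and 14. It was higher in the Ezh2-deficient library of each day, by ratios of 1.27, 1.67 and 1.39. Tpm2 (chromosome 4, 43514712 to 43523388), β-tropomyosin, was 29.0, 99.3 and 86.1 CPM in wildtype and 42.6, 96.3 and 59.8 CPM in Ezh2-deficient cells. Its ratio crossed 1, from 1.47 (1.35 to 1.59) at day 3 through 0.969 (0.926 to 1.02) at day 7 to 0.695 (0.652 to 0.741) at day 14. Within the summed RPKM of Tpm1, Tpm2, Tpm3 and Tpm4, Tpm1 took 28.8%, 24.5% and 28.2% in wildtype and 33.9%, 36.1% and 38.8% in Ezh2-deficient libraries. Tpm4, a tropomyosin of the cytoskeleton of most cells, took 33.3% to 45.4%.

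Of the myosin chains, the light chain was well expressed and the smooth muscle heavy chain was under 1 CPM in every library. Myl9 (chromosome 2, 156775464 to 156781657), the regulatory light chain whose phosphorylation starts contraction, was 10.4, 52.3 and 32.7 CPM in wildtype and 17.6, 89.8 and 56.6 CPM in Ezh2-deficient cells at days 3, 7 and 14. Day 7 was the highest and day 3 the lowest in both genotypes, whose ranges overlapped. The ratio of Ezh2-deficient to wildtype was 1.68 (1.48 to 1.92), 1.72 (1.62 to 1.82) and 1.73 (1.59 to 1.89), with intervals that overlapped on all 3 days. Myh11 (chromosome 16, 14194527 to 14291408) was 0.334, 0.454 and 0.152 CPM in wildtype and 0.565, 0.330 and 0.328 CPM in Ezh2-deficient cells. A level of 3 fragments is 0.0763 to 0.114 CPM, and no genotype difference of Myh11 was detectable at this depth. Its ratio at day 14 had an interval of 0.603 to 9.61. Of the summed RPKM of Myh11 and the non-muscle heavy chains Myh9, Myh10 and Myh14, Myh11 took between 0.0202% and 0.0877%, and Myh9 between 74.0% and 87.6%.

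Des (chromosome 1, 75360344 to 75367715), desmin, the intermediate filament of smooth, skeletal and cardiac muscle, was 0.485, 3.32 and 1.94 CPM in wildtype and 1.26, 5.82 and 3.87 CPM in Ezh2-deficient cells at days 3, 7 and 14. The Ezh2-deficient library was higher on each day, by ratios of 2.61 (1.45 to 4.92), 1.75 (1.40 to 2.21) and 2.00 (1.42 to 2.85), from 32 to 458 counts.

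**Figure D2:**
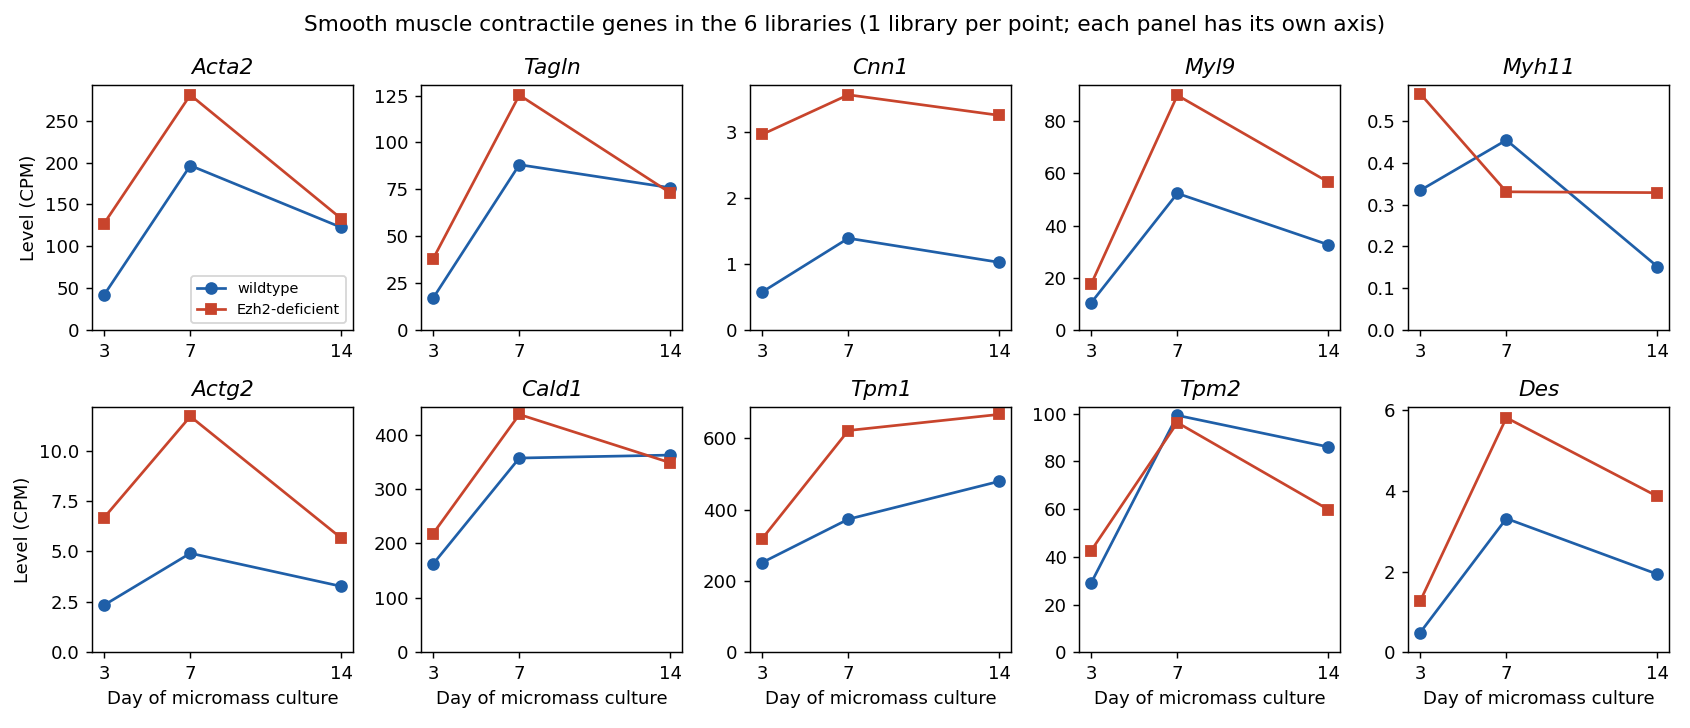
Level (CPM, linear axes from 0, a separate axis per panel) of each gene against day of culture; blue circles are wildtype and red squares Ezh2-deficient libraries, 1 library per point. Most genes are highest at day 7, and the lines of Actg2, Cnn1, Myl9, Tpm1 and Des stay apart while those of Acta2, Tagln, Cald1 and Tpm2 meet or cross by day 14.

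The comparison of genotypes over the 3 days asked whether loss of Ezh2 moved these genes. Cnn1 had the greatest fitted difference, 1.77 ± 0.27 (log2, SE), followed by Actg2 at 1.19 ± 0.19, Des at 1.03 ± 0.20, Myl9 at 0.78 ± 0.07, Acta2 at 0.74 ± 0.28, Tagln at 0.53 ± 0.22 and Tpm1 at 0.52 ± 0.11. Myh11 was 0.41 ± 0.46, Cald1 0.22 ± 0.11 and Tpm2 -0.01 ± 0.20; the sign of Tpm2 changed with the scaling. The median of the 10 was 0.63, beside -0.00 for all 16280 genes tested, a description of genes chosen with earlier results known. The Ezh2-deficient library was the higher of the pair on all 3 days for 6 members (Acta2, Actg2, Cnn1, Myl9, Tpm1 and Des), as for 18.0% of all genes tested.

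None of the 10 passed an adjusted p of 0.05 in edgeR's quasi-likelihood test, in which the days stood in for replicates. The adjusted p was 0.0644 for Myl9, 0.111 for Cnn1, 0.113 for Actg2, 0.163 for Des, 0.17 for Tpm1, 0.361 for Acta2 and 0.392 for Tagln. That test called 0% of all genes higher and 0.0123% lower, or 0 and 2 genes of 16280. At unadjusted p below 0.05, 6 members were higher (Acta2, Cnn1, Myl9, Actg2, Tpm1 and Des) and 0 lower, where 6.82% of all genes were higher and 6.33% lower. DESeq2 called 5 members higher, Myl9 (adjusted p = 4.77e-10), Actg2 (1.59e-05), Cnn1 (1.93e-05), Tpm1 (0.0024) and Des (0.0048), beside 2.54% of the genes it tested, and limma-voom called Myl9 (adjusted p = 0.041), beside 0.190%. Without the day 3 pair edgeR called 4 members, Cnn1, Myl9, Actg2 and Tpm1 (adjusted p from 0.0108 to 0.0366), beside 2.42% of all genes in that fit. Without the day 7 or the day 14 pair it called 0. A fit without a pair leaves 1 residual degree of freedom, where the main fit leaves 2. Over all 12 alternatives the log2 difference of Myl9 stayed between 0.76 and 0.79, while that of Acta2 ranged from 0.32 to 1.06. The smallest value of Acta2 came without the day 3 pair.

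On single days, with 1 library a genotype, no test is possible and a gene was counted when the higher library had at least 1 CPM and the libraries were at least 2-fold apart. Day 3 had the most members: 5 of the 9 at 1 CPM or more were higher in Ezh2-deficient cells (Acta2, Tagln, Cnn1, Actg2 and Des), against 1.81% of all such genes. At day 7 there were 2 (Cnn1 and Actg2), against 2.51%. At day 14 there was 1 (Cnn1), against 2.58%, and Des at a ratio of 2.00 lay just under the limit. On each day 0 members were lower by this rule, where 0.548%, 1.68% and 3.32% of genes were.

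**Figure D3:**
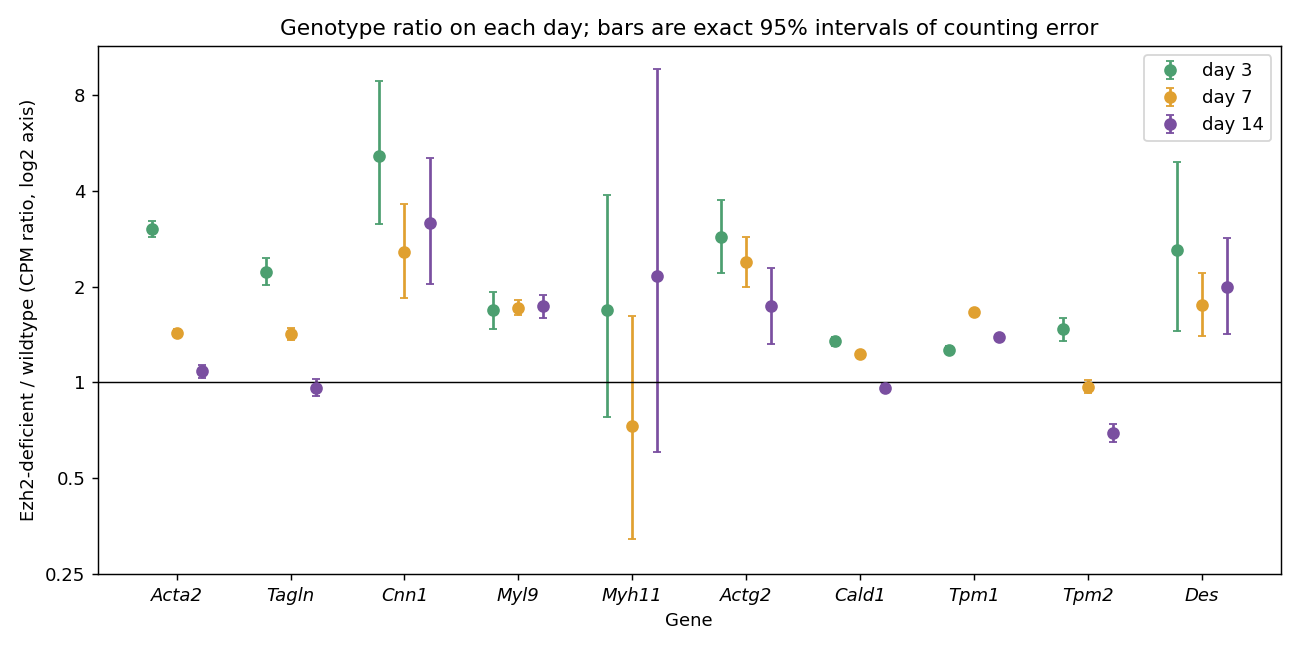
Ratio of Ezh2-deficient to wildtype CPM (log2 axis) for each gene on each day; bars are exact 95% intervals of counting error and the line marks a ratio of 1. Myl9 is level at 1.68 to 1.73, Cnn1 stays above 2.5, and Acta2, Tagln, Actg2, Cald1 and Tpm2 step down from day 3 to day 14.

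The genotype difference of Tagln shrank with day. Per doubling of day the log2 difference of Tagln fell by 0.54 ± 0.07 (adjusted p = 0.046 by edgeR), that of Acta2 was -0.67 ± 0.09 (adjusted p = 0.0542) and that of Tpm2 was -0.49 ± 0.07 (0.0542). This test called 0.553% of all genes falling, and among members only Tagln. It leaves 1 residual degree of freedom and rests on a narrow margin: Tagln was lost with counts halved (adjusted p = 0.0522), with a stricter filter (0.0876) and in limma-voom (0.0504), while DESeq2 called Acta2, Tagln and Tpm2, and limma-voom called Acta2 (0.0448). Cald1 (-0.21, adjusted p = 0.327), Actg2 (-0.32, 0.423) and Cnn1 (-0.33, 0.658) did not pass, and Myl9 (0.02) and Tpm1 (0.07) had values near 0.

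Most members were higher at day 7 than at day 3. From day 3 to day 7, 8 members rose, with edgeR log2 changes of 2.46 ± 0.26 for Des (adjusted p = 0.00218), 2.34 ± 0.09 for Myl9 (0.000334), 2.01 ± 0.28 for Tagln (0.00486), 1.62 ± 0.35 for Acta2 (0.0182), 1.45 ± 0.25 for Tpm2 (0.00907), 1.07 ± 0.14 for Cald1 (0.0043), 0.92 ± 0.22 for Actg2 (0.0267) and 0.77 ± 0.13 for Tpm1 (0.0088). Of all genes tested, 19.5% passed upward in this comparison. Cnn1 (0.70 ± 0.32, adjusted p = 0.141) and Myh11 (-0.14 ± 0.54, 0.859) did not pass. Within genotypes, the day 7 to day 3 ratio of Acta2 was 4.68 in wildtype and 2.21 in Ezh2-deficient cells, that of Tagln 5.17 and 3.30, and that of Myl9 5.01 and 5.11. Tagln, Myl9, Cald1 and Des passed under all 14 alternatives. Actg2 was lost without the wildtype day 3 library (adjusted p = 0.0709). Without the wildtype day 7 library Acta2 (adjusted p = 0.103), Actg2 (0.137) and Tpm2 (0.06) were lost, and without the Ezh2-deficient day 7 library Acta2 (0.08), Actg2 (0.194), Tpm1 (0.0953) and Tpm2 (0.063).

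A peak at day 7 in both genotypes was seen for 7 members (Acta2, Tagln, Cnn1, Myl9, Actg2, Tpm2 and Des), against 14.2% of all genes tested; Tpm1 was highest at day 14 in both. From day 7 to day 14, edgeR called Myl9 alone, which fell by 0.67 ± 0.08 (adjusted p = 0.0149), where 2.29% of all genes were lower. That call was lost without any of the day 7 or day 14 libraries (adjusted p from 0.0532 to 0.214). Acta2 was -0.85 ± 0.34 (0.209) and Actg2 -0.81 ± 0.22 (0.107), and both passed, with Tagln, when either day 3 library was left out. At day 14, 6 members remained above day 3, namely Des (1.77 ± 0.26, adjusted p = 0.004), Myl9 (1.67 ± 0.08, 0.000185), Tagln (1.54 ± 0.28, 0.00789), Tpm2 (1.03 ± 0.25, 0.0208), Tpm1 (1.00 ± 0.13, 0.00272) and Cald1 (0.92 ± 0.14, 0.00475), against 23.2% of all genes. Tpm2 was lost without the wildtype day 14 library (adjusted p = 0.0754). Acta2 (0.77 ± 0.34, adjusted p = 0.121) did not pass: it was 2.92-fold above day 3 in wildtype and 1.05-fold in Ezh2-deficient cells, and it passed in DESeq2 (0.032) and, at 1.45, without the Ezh2-deficient day 3 library (0.000256).

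Among the regulators of contractile genes, Myocd, the cofactor that drives the differentiated smooth muscle program, was 0.113 to 0.38 CPM in the 6 libraries, or 8 to 20 counts. Srf was 29.1 to 40.3 CPM, with a log2 genotype difference of 0.24 (adjusted p = 0.336), and the actin-sensing cofactor genes Mkl1 and Mkl2 were 24.8 to 39.4 and 38.5 to 58.1 CPM (0.16 and -0.11, adjusted p = 0.475 and 0.683). Of 21 regulators tested, 0 passed between genotypes in edgeR (3 were higher and 0 lower at unadjusted p below 0.05) and their median was 0.06. The smallest p was that of Fhl2, a LIM-domain cofactor that binds SRF. It was 6.34 against 12.6, 24.2 against 43.7 and 24.3 against 45.1 CPM at days 3, 7 and 14 (0.91, adjusted p = 0.0644). From day 3 to day 7, 6 regulators rose and 2 fell; for this and the lists that follow, the shares of all genes tested were 19.5% and 16.6%. Exact CArG boxes were found in 3 of the 24 promoter windows of the regulators, those of Fhl2 and Srf, against 1.63% of all windows. A link of these boxes to the levels was not tested.

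Of 30 genes listed for the rest of the contractile apparatus, among them Myocd, which is also on the regulator list, 0 passed between genotypes in edgeR, with 10 higher and 1 lower at unadjusted p below 0.05. Their median was 0.16, with 23 above 0, beside 8090 of all 16280 genes tested. The smallest p values were those of Cnn2, a calponin of many cell types (0.60, adjusted p = 0.0799), Pgm5, a protein of muscle adhesion plaques (0.97, 0.11), Dmpk, a muscle kinase (0.50, 0.113), Pdlim7, an actin-bound scaffold (0.48, 0.114), Mylk, the kinase that phosphorylates Myl9 (0.55, 0.165), and Palld, an actin bundler (0.40, 0.195). From day 3 to day 7, 14 of the 30 rose and 1 fell, with Mylk at 1.69 (adjusted p = 0.00101) and Cnn2 at 1.51. The 13 non-muscle genes of the actin and myosin cytoskeleton had a median of -0.04 between genotypes and 0.40 from day 3 to day 7, and 9 of them rose and 1 fell over those days. Their smallest p between genotypes were those of Myh14, a non-muscle heavy chain (-0.84, adjusted p = 0.111), and Myh9 (0.27, 0.316).

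**Figure D4:**
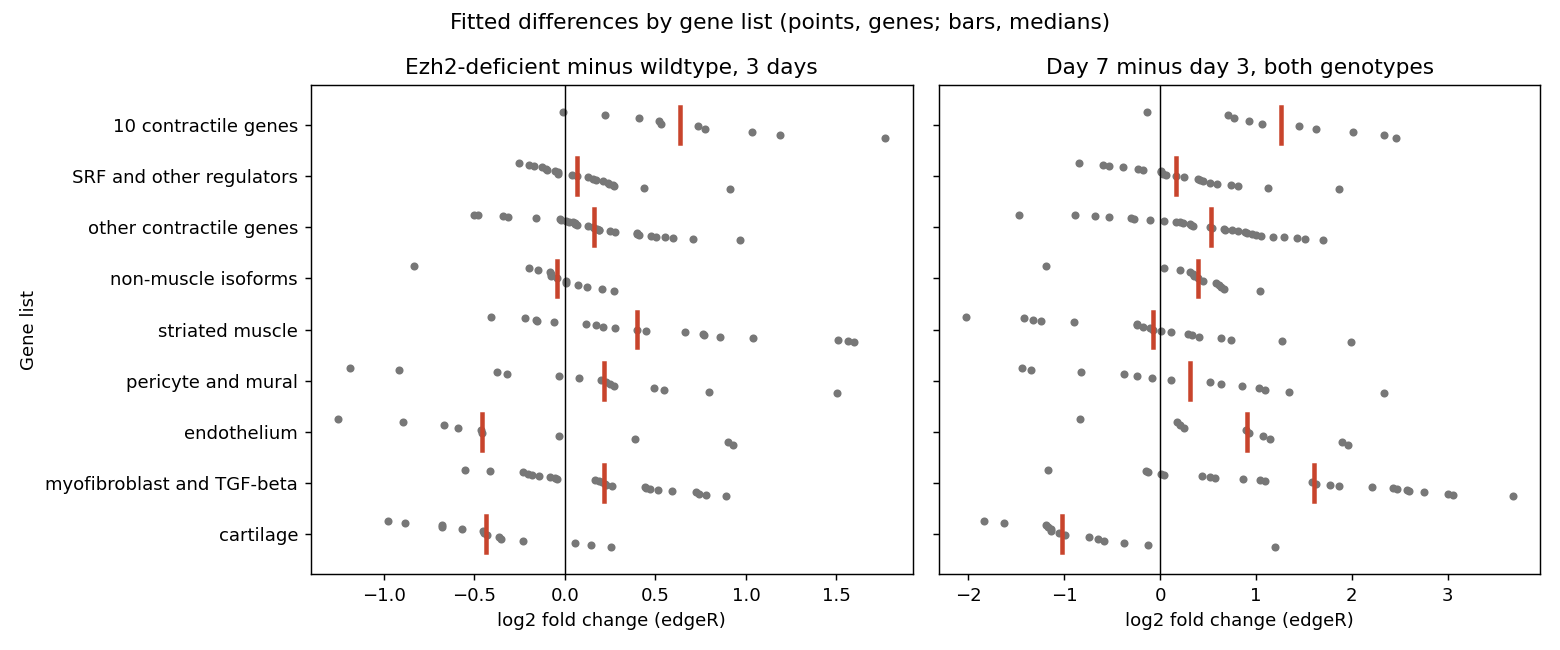
Fitted log2 differences (edgeR) of each gene in 9 lists, between genotypes (left) and from day 3 to day 7 (right); points are genes and red bars medians. The contractile genes have medians of 0.63 and 1.26, cartilage genes -0.44 and -1.02, and the SRF regulators 0.06 between genotypes, with Fhl2 the highest of them at 0.91.

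Markers of other cells that express these genes were counted beside them. Of 16 pericyte and mural markers, 14 were tested and 0 passed between genotypes in edgeR, with 1 higher and 3 lower at unadjusted p below 0.05. Their median was 0.21 with 9 of the 14 above 0, and the Ezh2-deficient library was the higher for 2, 9 and 10 of them at days 3, 7 and 14. Of all 16280 genes tested, 8090 were above 0, and 8154, 8025 and 8128 were higher on those days. Members of the list went both ways. Rgs5, a defining pericyte gene, was 0.109 to 1.52 CPM and lower in each Ezh2-deficient library. The channel genes Kcnj8 and Abcc9, named after their values were seen, were 0.27 against 1.97 CPM and 2.77 against 6.46 CPM at day 14. The summed level of the list was 1021 to 1763 CPM in wildtype and 754 to 1213 CPM in Ezh2-deficient libraries, with Cspg4, which cartilage also expresses, alone at 364 to 1379 CPM. Of 28 striated muscle markers, 16 stayed under 1 CPM in every library, and of the 19 tested 0 passed between genotypes in edgeR (median 0.40, with 1 higher at unadjusted p below 0.05). Their sum was 31.6 to 45.1 CPM in wildtype and 27.8 to 46.5 CPM in Ezh2-deficient libraries, and the muscle regulators Myod1, Myog, Myf5 and Pax7 were each at most 0.242 CPM. At day 3, 16 of the 19 tested were higher in the Ezh2-deficient library, with the skeletal actin Acta1 at 1.61 against 4.33 CPM; the part of such cells in the day 3 differences was not tested. Endothelial Pecam1 and Cdh5 were at most 0.971 and 0.737 CPM. Of the 12 endothelial genes listed, 6 stayed under 1 CPM in every library. Other genes of the list were higher. Eng reached 48.1 CPM (Ezh2-deficient, day 14), Erg 18.2 CPM (wildtype, day 7) and Kdr 4.37 CPM (wildtype, day 14). Of 10 endothelial genes tested 0 passed between genotypes (median -0.46, with 2 higher and 3 lower at unadjusted p below 0.05). That list summed to 32.0 to 66.3 CPM in wildtype and 37.2 to 66.3 CPM in Ezh2-deficient libraries.

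Genes of activated fibroblasts and of cartilage also changed with day. Of 24 myofibroblast and TGF-β response genes, 17 rose and 1 fell from day 3 to day 7, with a median of 1.61. Between genotypes 0 passed in edgeR (median 0.21, with 7 higher and 1 lower at unadjusted p below 0.05). The smallest p were those of Postn (0.89, adjusted p = 0.11), Cdh2 (0.78, 0.12), Tnc (0.74, 0.127) and Fap (0.44, 0.165). At days 3, 7 and 14 the Ezh2-deficient library was the higher for 20, 16 and 11 of the 24. Of all 16280 genes tested, 8154, 8025 and 8128 were higher on those days. The sum of the 24 was 13902 to 86143 CPM in wildtype and 15838 to 135845 CPM in Ezh2-deficient libraries, the highest at day 14 in both. The collagen genes Col1a1 and Col1a2 were set aside after their values were seen. The rest of the list summed to 12164, 18175 and 24804 CPM in wildtype at days 3, 7 and 14. In Ezh2-deficient cells the same sums were 12955, 18690 and 20554 CPM. The cartilage markers that define the labelled cell type were abundant, with Col2a1 going from 79131 CPM at day 3 to 20192 CPM at day 14 in wildtype and from 78037 to 11449 CPM in Ezh2-deficient cells. Of 14 cartilage genes, 8 fell and 1 rose from day 3 to day 7, and 0 passed between genotypes in edgeR (median -0.44; 0 higher and 7 lower at unadjusted p below 0.05). These lists moved with day beside the contractile genes, and their part in the changes of the contractile genes was not tested.

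Pearson correlations of log2 CPM over the 6 libraries are given as a description, with no test, since the libraries share days and genotypes. Tagln and Cald1 (0.99) and Myl9 and Des (0.99) ran close together. Cnn1 ran with Actg2 (0.92) and least with Tpm2 (0.35). Among the genes of at least 5 CPM most like Acta2 were Tns1, an actin-linked adhesion protein (0.99), C1rl (0.98), Fabp4, a fatty acid carrier of adipocytes (0.98), and Igf2bp3, an RNA-binding protein (0.98). Those most like Tagln were Gprc5b, Lphn2, Prss23, Meox2, a mesodermal homeobox gene, and Trio (0.99 to 1.00). Those most like Cnn1 were Ndufaf1 (0.99), Fam117a, Mtmr9, Epha7 and Ddx24 (0.95 to 0.96). With 6 points and 11061 genes ranked for Acta2 and Tagln, and 11062 for Cnn1, such values are a description only.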

How the data were processed

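The deposited table gave, for each of 6 libraries, a whole-number read count per gene, not normalized, and an RPKM value that the authors computed relative to a listed gene length and to library depth. The submitters' processing notes name CASAVA 1.9, TopHat 12.0.6, HTSeq and mm10, with no role or order; strand setting and annotation are not given in the sources used here. Columns were matched by title, with 0 left over. Every count was even, so intervals take 2 counts as 1 fragment. Only 37.8% of the listed lengths are multiples of 3, so they hold more than coding sequence. RPKM served only to compare levels between genes.

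CPM used TMM-scaled totals. Tests ran in R 4.3.3 on the counts as deposited with edgeR 4.0.16 (quasi-likelihood F test, two-sided, Benjamini-Hochberg over the 16280 genes kept by filterByExpr at a minimum count of 10, threshold 0.05); all 10 members were kept. The fit held day and genotype as factors, with 2 residual degrees of freedom, so p-values measure spread between days or genotypes, not between cultures. The trend with day was genotype times centred log2 day. SE is the log2 change over the square root of F. Log2 ratios within a day used a prior count of 2. Alternatives were RLE, upper-quartile and no scaling factors, other filters, halved counts, DESeq2 1.42.0, limma-voom 3.58.1, no day term and leaving out libraries. All members are named. Of other lists, up to 6 genes with the smallest p are named, with Srf, Myocd, Mkl1 and Mkl2. Defining markers of other cells, Acta1, Col2a1, Kcnj8 and Abcc9 are named beyond that rule, and Eng, Erg and Kdr for their level. Members and lists were chosen with earlier results of these data known. Of the genes ranked by likeness, 1 among those most like Acta2 is not reported here.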

Additional observations from a re-analysis of the deposited data

Results flagged for a closer look

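The genotype difference of Tagln changed with day, by -0.54 on the log2 scale per doubling, in a test of that change across all genes (adjusted p = 0.046 by edgeR). Cald1 and Tpm2 were higher in the Ezh2-deficient library at day 3 and lower at day 14, each beyond counting error. From day 3 to day 14 the log2 difference of Cald1 moved by -0.48 and that of Tpm2 by -1.08. For Cald1 and Tpm2 this crossing itself has no replicate, and their tested trends did not pass (adjusted p = 0.327 and 0.0542).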

How the results depend on the processing

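Between genotypes, edgeR with TMM called 0 members, DESeq2 5 and limma-voom 1; leaving out a day's pair gave 0 to 4. All genes called higher and lower were 0 and 2 with TMM, 381 and 244 in DESeq2, 31 and 9 in limma-voom, and 383 and 480 without the day 3 pair, while RLE factors or no filter gave 6 higher. The lower calls were 0 with total counts only, without the day 7 or day 14 pair or without a day term, and 1 at a minimum count of 50. From day 3 to day 7, leaving out a library gave 4 to 8 members; all genes higher were 3172, but 1440 and 1433 without the wildtype and Ezh2-deficient day 7 library. From day 7 to day 14, 1 member was lower with TMM, 2 in DESeq2 and 0 to 4 without a library (all genes 372, 888 and 8 to 1272). For the trend, 1 member fell with TMM, 3 with RLE factors, with total counts only, without a filter and in DESeq2, and 0 at a minimum count of 50 or with counts halved. All genes falling were 90, but 250 with total counts only, 220 without a filter, 278 in DESeq2 and 0 under the last 2. Leaving a day's pair out of the trend was not run.

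Signs turned only for values that did not pass. Tpm2 between genotypes was 0.0056 with RLE factors and 0.0071 in DESeq2, and ran from -0.28 to 0.26 without a day's pair (0.0079 without day 7). Without a library, Actg2 ran from -0.15 to 0.41 (day 14 against 3), Myh11 from -0.83 to 0.54 (day 7 against 3), Cnn1 from -0.62 to 0.043 and Cald1 from -0.35 to 0.056 (day 14 against 7). Myh11 was 0.068 with total counts only (day 7 against 3), and its trend was -0.013 with total counts only, -0.070 with counts halved and -0.057 in limma-voom. The trend of Myl9 was -0.018 with total counts only. The causes were not tested. The fit with day as a factor compares the genotypes within each day; the labels carry no further replicate numbers. Among the members, depth limits Myh11 most, at 8 to 42 counts.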
